A study of Mus musculus with 5 samples.

Results

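The blood proteins of the complement system and of coagulation are made largely by hepatocytes, and 38 mouse genes for them were followed here in single hepatocytes. The members are a list of pathway genes given by symbol, and all 38 were found among the 18018 genes of the deposited expression table. They comprise 8 genes of complement activation, 4 of complement regulation, 6 of membrane attack, 13 of clotting, 3 of anticoagulation and 4 of fibrinolysis. The cells came from male C57BL/6J littermates that were 8 weeks old when the diets began. High-fat diet (HFD) was given to 3 mice and the regular diet, labelled LFD, to 2 mice, for 12 weeks in both groups. Each mouse was 1 Drop-seq experiment, a droplet method that tags every captured mRNA molecule with a unique molecular identifier (UMI), and no allele or agent other than the diet was named in the labels.

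Complement is a cascade of plasma proteins in which recognition molecules and their proteases activate C3, and the terminal components then assemble into a pore in the target membrane. Coagulation is a parallel cascade that ends when thrombin turns fibrinogen into fibrin, and plasmin later dissolves the clot. Both cascades are held in check by serpins and other inhibitors that the liver also secretes. Hepatocytes near the portal vein (periportal) and near the central vein (pericentral) of the liver lobule divide metabolic tasks between them, and secreted plasma proteins are known to be among the genes that vary along this axis.

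The table held 454 cells and 1499094 UMIs. HFD mouse 1 had 5 cells and 27903 UMIs, HFD mouse 2 had 208 cells and 656803 UMIs, and HFD mouse 3 had 25 cells and 58470 UMIs. LFD mouse 1 had 132 cells and 446868 UMIs, and LFD mouse 2 had 84 cells and 309050 UMIs. No cell barcode was shared between mice. All 12 hepatocyte markers had UMIs. They summed to 157832, 197649.8 and 196117.7 CPM (UMIs scaled to a common total of 1000000 UMIs per mouse) in HFD mice 1, 2 and 3. In LFD mice 1 and 2 they summed to 164227 and 163391 CPM, below HFD mice 2 and 3. HFD mouse 1 stood apart: its sinusoidal endothelial markers (6 of 7 with UMIs over all mice, Pecam1 at 0) summed to 932 CPM, against 0 to 13.4 CPM in the other mice, 8.98% of its UMIs were mitochondrial, against 5.10% to 5.63%, and 3 of its 5 cells had at least 3 UMIs from some marker list of another cell type. Erythroid markers (4 of 4 with UMIs) summed to 502, 13.7 and 291 CPM in HFD mice 1, 2 and 3, against 6.71 and 3.24 CPM in LFD mice 1 and 2. Macrophage, stellate, cholangiocyte, lymphocyte, neutrophil and platelet lists summed to at most 42.5 CPM in any mouse. Diet results are therefore given with 5 mice and again with 4 mice, without HFD mouse 1. The part that the hepatocyte marker, endothelial, erythroid and mitochondrial UMIs have in them was not tested.

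The 38 genes took 3.05%, 2.73% and 2.90% of all UMIs in HFD mice 1, 2 and 3, against 3.38% and 3.25% in LFD mice 1 and 2. Every HFD mouse lay below both LFD mice in this summed share. All 454 cells held UMIs of the set, with a median share per cell of 2.68%, 2.83% and 3.11% in the HFD mice and 3.30% and 3.14% in the LFD mice. Single-cell shares ranged from 1.28% to 4.65% over the HFD mice and from 1.45% to 6.07% over the LFD mice, so cells of the diets overlapped widely. A UMI stands for 1 captured molecule, so CPM were not divided by gene length. The plot of members by mouse shows the spread of levels, which runs over more than 2 orders of magnitude, from Masp1 near the detection limit to Fgb.

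**Figure D1:**
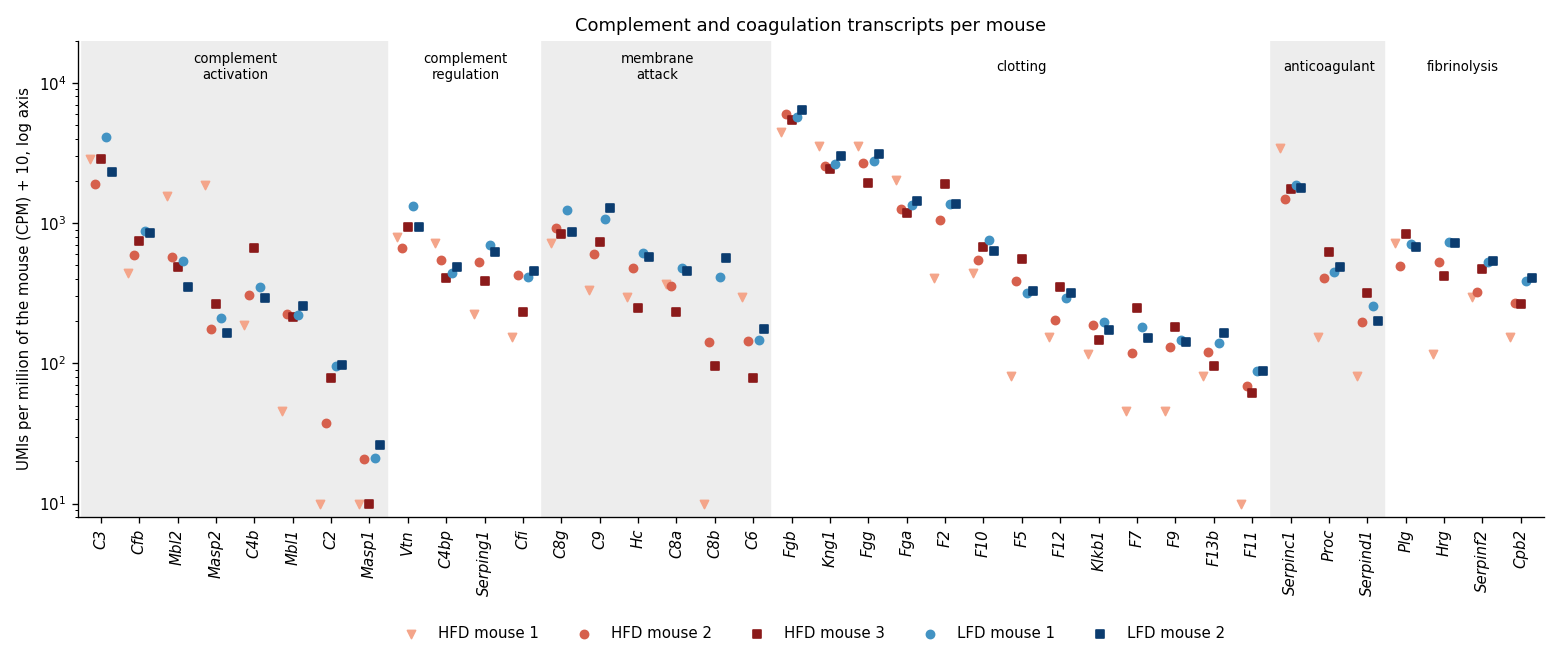
Level of each of the 38 members in each mouse as CPM + 10 on a log axis, ordered within functional groups by mean level, with the HFD mice drawn left of the LFD mice. C8b shows the widest gap between the nearest mice of the diets, and HFD mouse 1, with 27903 UMIs, scatters most.

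Over all 5 mice, 37 of the 38 genes had enough UMIs to be tested, and none passed the threshold for diet (limma voom on UMIs summed per mouse, Benjamini-Hochberg adjusted p under 0.05). Of all 3614 genes tested 0.221% passed, 0.166% as lower and 0.0553% as higher in HFD. At an unadjusted p under 0.05 there were 3 members, C8b, C9 and C2, beside 5.17% of all genes. The fold change of HFD over LFD was below 0 for 33 of the 37 tested members, beside 54.8% of all genes, with a median of -0.41 on the log2 scale, beside -0.056 over all genes. Every HFD mouse was below every LFD mouse for 13 of the 37, beside 14.3% of all genes, and for no member was every HFD mouse above every LFD mouse, beside 8.88% of all genes. The counts describe the members and were given no test, since the list was chosen with results of these data known.

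Without HFD mouse 1, 3 of 37 tested members passed, all lower in HFD: C8b, C9 and C2. In that comparison of 4 mice 2.07% of all 3670 genes passed as lower in HFD, 1.28% passed as higher and 3.35% in either direction. An unadjusted p under 0.05 was found for 12 members, beside 18.1% of all genes. The fold change was below 0 for 32 of the 37, beside 49.8% of all genes, and the median was -0.30, beside 0.0022 over all genes. Both HFD mice lay below both LFD mice for 18 of the 37, beside 20.2% of all genes, and above them for 1, F5, beside 20.6%.

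**Figure D2:**
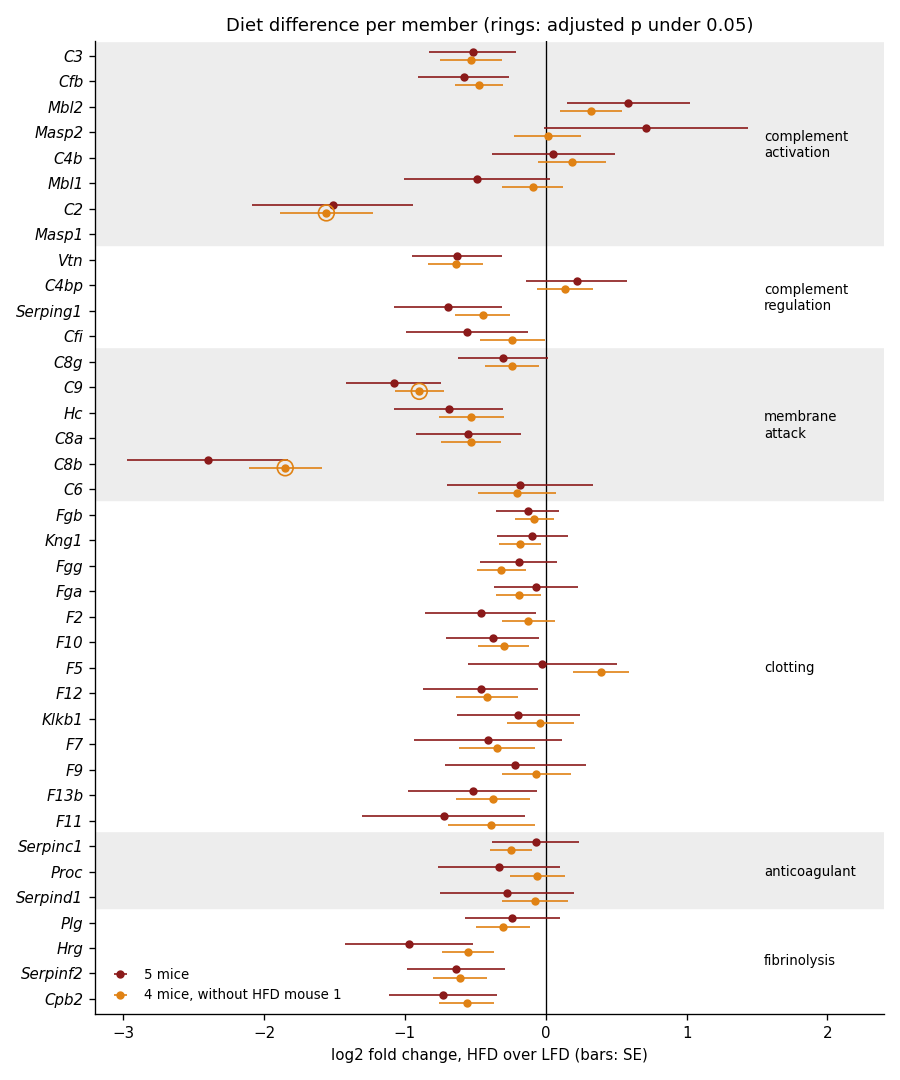
Log2 fold change of HFD over LFD for the 37 tested members (points, with bars for the standard error), with 5 mice and with 4 mice without HFD mouse 1. Rings mark an adjusted p under 0.05. The rings lie on C2, C9 and C8b in the 4 mice, and most points lie left of 0.

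Membrane attack held 2 of the 3 genes that passed. The terminal proteins C5 (encoded in mice by Hc), C6, C7, C8 and C9 assemble into the pore of the membrane attack complex. C7 was not among the genes of the deposited table. The summed level of the 6 genes followed was 1971, 2593 and 2155 CPM in HFD mice 1, 2 and 3, against 3889 and 3851 CPM in LFD mice 1 and 2. Every HFD mouse was thus below both LFD mice, and all 6 genes had a fold change below 0, with a median of -0.62 in 5 mice and -0.53 in 4 mice.

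C8 is built from 3 chains, each from a gene of its own: C8a and C8b, whose proteins belong to the pore-forming family, and C8g, which encodes a small lipocalin chain. C8b, the beta chain that binds the complex already on the membrane, was at 0, 132 and 85.5 CPM in HFD mice 1, 2 and 3, against 401 and 550.1 CPM in LFD mice 1 and 2. These levels rest on 0, 87 and 5 UMIs in the HFD mice and 179 and 170 UMIs in the LFD mice. The groups did not overlap. A count of 0 UMIs in HFD mouse 1 allows a level of up to 107.5 CPM (3 UMIs), which is still below both LFD mice. The difference was -2.40 ± 0.57 on the log2 scale in 5 mice (limma SE, adjusted p = 0.202, n = 3 HFD and 2 LFD mice) and -1.85 ± 0.26 in 4 mice (limma adjusted p = 0.00053). C8b also passed when the 9 cells with such marker UMIs of other cell types were left out, at -2.09 (limma adjusted p = 0.0115). In the same 4 mice, described by lobule side further on, it was -1.62 in periportal cells (limma adjusted p = 0.0036) and -1.84 in pericentral cells (limma adjusted p = 0.103). Without HFD mouse 3, whose raw-read name has another form than those of the other mice, the difference was -3.32 ± 0.91 (limma adjusted p = 0.786). What this form of name stands for is not known.

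The other C8 chains did not pass. C8a was at 358, 349 and 222 CPM in HFD mice 1, 2 and 3, against 468 and 443 CPM in LFD mice 1 and 2, a difference of -0.55 ± 0.37 in 5 mice. The groups did not overlap, yet the gap was small beside that of C8b. C8g was at 717, 909 and 821 CPM in the HFD mice, against 1222 and 857 CPM in the LFD mice, so the groups overlapped. The ratio of C8b to C8a UMIs was 0, 0.380 and 0.385 in HFD mice 1, 2 and 3, against 0.856 and 1.24 in LFD mice 1 and 2. It rests on 10, 229 and 13 C8a UMIs in the HFD mice and 209 and 137 in the LFD mice. In HFD mouse 1, 9 of the 10 C8a UMIs came from 1 cell, so its ratio of 0 is poorly determined. Every HFD ratio was below every LFD ratio, with a two-sided exact permutation p of 0.2, the smallest that 3 mice against 2 can give. The ratio of C8g to C8a UMIs was 2.00, 2.61 and 3.69 in the HFD mice, against 2.61 and 1.93 in the LFD mice, and overlapped.

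C8b and C8a lie 11131 bases apart on chromosome 4 (mm10), C8b on the plus strand and C8a on the minus strand. The stretches of 150 bases before each start in RefSeq (GRCm38.p6) are shown for these neighbours, which differed in size of the diet difference, and for C9, which passed as well. Capitals mark the HNF1 half-site GTTAAT and the C/EBP motif TTGCNNAA, each searched on both strands; these are liver-enriched transcription factors. The C8b stretch is chr4:104766167-104766316 on the plus strand, the C8a stretch chr4:104876399-104876548 on the minus strand, and the C9 stretch chr15:6445196-6445345 on the plus strand.
C8b: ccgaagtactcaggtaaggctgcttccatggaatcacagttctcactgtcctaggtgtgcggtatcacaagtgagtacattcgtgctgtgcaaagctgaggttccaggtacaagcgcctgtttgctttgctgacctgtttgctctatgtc
C8a: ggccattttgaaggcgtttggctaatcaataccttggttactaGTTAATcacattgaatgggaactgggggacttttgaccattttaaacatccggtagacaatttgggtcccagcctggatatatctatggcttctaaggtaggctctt
C9: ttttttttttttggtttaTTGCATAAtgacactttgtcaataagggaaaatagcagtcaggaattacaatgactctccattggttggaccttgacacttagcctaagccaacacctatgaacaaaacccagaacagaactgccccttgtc
C8a holds an HNF1 half-site 107 to 102 bases before its start, C8b holds one 206 to 201 bases before its start, outside the printed stretch, and C9 holds a C/EBP motif 132 to 125 bases before its start. The GENCODE annotation starts C9 at base 6445327, inside the printed stretch and after this motif. Of the 29 members with a RefSeq promoter, 8 held the half-site in the 250 bases before the start (27.6%), against 6.43% of all 32851 promoters, and 8 held the C/EBP motif (27.6%), against 9.56%. The STAT motif TTCNNNGAA, which reads the same on both strands, was found in 5 members (17.2%), against 7.02% of all promoters. The HNF3 motif TGTTTAC was found in 2 (6.90%), against 3.17%, and the HNF4 letters AAAGTCCA in 0, against 1.01%. A match is only a run of letters, and its part in these levels was not tested.

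C9, the subunit that polymerises to line the pore, was at 323, 595 and 718 CPM in HFD mice 1, 2 and 3, against 1063 and 1272 CPM in LFD mice 1 and 2. Every HFD mouse was below both LFD mice. The difference was -1.08 ± 0.34 in 5 mice (limma adjusted p = 0.564, unadjusted p = 0.0078) and -0.90 ± 0.17 in 4 mice (limma adjusted p = 0.0083). Hc was at 287, 472 and 239 CPM in the HFD mice, against 599.7 and 563 CPM in the LFD mice, without overlap, a difference of -0.69 ± 0.39 that did not pass with 5 or 4 mice. C6 overlapped, at 68.4 to 287 CPM over the HFD mice and 137 to 165 CPM over the LFD mice.

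**Figure D3:**
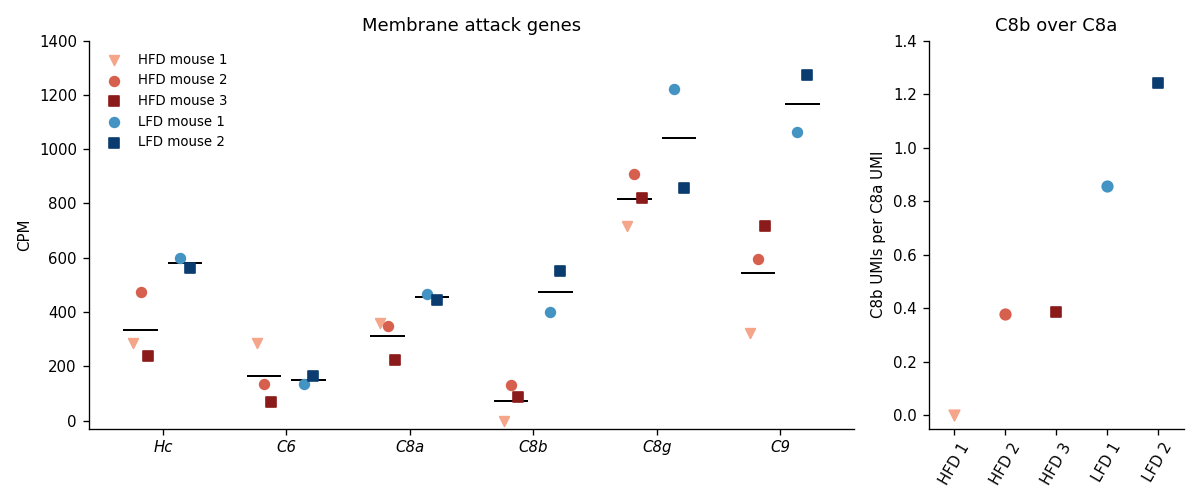
Left, CPM of the 6 membrane attack genes in each mouse, with black lines for the group means and the HFD mice left of the LFD mice within each gene. Right, UMIs of C8b per UMI of C8a in each mouse, between 0 and 0.385 in the HFD mice and between 0.856 and 1.24 in the LFD mice.

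The genes of complement activation shared no common direction. Summed levels were 6917, 3745 and 5268 CPM in HFD mice 1, 2 and 3, against 6328 and 4281 CPM in LFD mice 1 and 2, and overlapped. Of 7 tested genes, 4 had a fold change below 0 and 3 above, with a median of -0.49 in 5 mice and -0.093 in 4 mice. C2, the protease of the classical and lectin C3 convertase, was at 0, 27.4 and 68.4 CPM in the HFD mice, from 0, 18 and 4 UMIs, against 85.0 and 87.4 CPM in the LFD mice, from 38 and 27 UMIs. The 0 in HFD mouse 1 allows up to 107.5 CPM, which is above the LFD levels, so no difference of that mouse was detectable at its depth. C2 was -1.51 ± 0.57 in 5 mice (limma adjusted p = 0.854) and passed in 4 mice, at -1.56 ± 0.33 (limma adjusted p = 0.0152). The 4 UMIs of HFD mouse 3 lie near its limit of 3 UMIs (51.3 CPM), and 2 of them came from 1 cell. The C2 call in 4 mice thus rests mainly on the 18 UMIs of HFD mouse 2. Cfb, factor B of the alternative pathway, lies 86 bases from C2 on chromosome 17, and was at 430.1, 586 and 735 CPM in the HFD mice, against 873 and 845 CPM in the LFD mice. Its groups did not overlap, and its difference of -0.58 ± 0.32 did not pass with 5 mice or, at -0.47 ± 0.17, with 4 mice.

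C3, on which all 3 activation pathways converge, was at 2867, 1882 and 2873 CPM in HFD mice 1, 2 and 3, against 4079.5 and 2307 CPM in LFD mice 1 and 2. The diets overlapped, and the 2 LFD mice lay further apart than the group means of 2541 ± 571 and 3193 ± 1253 CPM (SD, n = 3 HFD and 2 LFD mice). C4b, the thioester protein cleaved ahead of C2, overlapped at 179 to 649.9 CPM over the HFD mice and 285 to 338 CPM over the LFD mice; the near-identical C4a makes its counts uncertain. Mbl2, a mannose-binding lectin that starts the lectin pathway, was at 1541, 563 and 479 CPM in the HFD mice, against 528 and 339.8 CPM in the LFD mice. Masp2, the protease bound to such lectins, was at 1864, 166 and 257 CPM in the HFD mice, against 201 and 155 CPM in the LFD mice. HFD mouse 1 was high for both, and 47 of its 52 Masp2 UMIs came from 1 cell (90.4%). Mbl1, the other mannose-binding lectin, had overlapping diets at 35.8 to 215 CPM over the HFD mice and 213 to 246 CPM over the LFD mice. Masp1, with 0, 7 and 0 UMIs in the HFD mice and 5 in each LFD mouse, was too low to test.

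Of the regulators, none passed. Summed levels were 1864, 2127 and 1916 CPM in HFD mice 1, 2 and 3, against 2846 and 2459 CPM in LFD mice 1 and 2, without overlap, and the median fold change was -0.59 in 5 mice and -0.34 in 4 mice. Vtn, vitronectin, which keeps forming attack complexes off the membrane, was at 788, 659 and 924 CPM in the HFD mice, against 1323 and 932 CPM in the LFD mice, a difference of -0.63 ± 0.32. HFD mouse 3 and LFD mouse 2 nearly touched. Serping1, the inhibitor of C1 and of plasma kallikrein, was at 215, 516 and 376 CPM in the HFD mice, against 687 and 608 CPM in the LFD mice, without overlap, a difference of -0.69 ± 0.38. C4bp, the C4b-binding protein, was at 717, 537 and 393 CPM in the HFD mice, against 432 and 472 CPM in the LFD mice, and Cfi, the protease that degrades C3b and C4b, was at 143 to 414 CPM over the HFD mice and 405 to 447 CPM over the LFD mice. Both overlapped.

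Clotting genes had the highest summed level of the functional groups in each of the 5 mice. Their summed level was 14837, 15201 and 15085 CPM in HFD mice 1, 2 and 3, against 15839 and 17127 CPM in LFD mice 1 and 2. The sums did not overlap, with a mean of 15041 ± 186 CPM in HFD and 16483 ± 910.4 CPM in LFD (SD, n = 3 HFD and 2 LFD mice). All 13 genes had a fold change below 0 in 5 mice, except that F5 turned to 0.012 with scaling by library size only, with a median of -0.21 and none past the threshold, and in 4 mice 12 of 13, with a median of -0.19.

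Fibrinogen is a hexamer with a pair each of 3 chains, from Fga, Fgb and Fgg, which lie in a cluster on chromosome 3 with 11027 bases between Fgg and Fga and 6514 between Fga and Fgb. Their stretches of 150 bases before the RefSeq start are shown because these neighbouring genes encode the subunits of a single protein, and Fgb and Fgg passed along the lobule (below) while Fga did not, with capitals as above. The Fga stretch is chr3:83026003-83026152 on the plus strand, the Fgb stretch chr3:83049864-83050013 on the minus strand, and the Fgg stretch chr3:83007574-83007723 on the plus strand.
Fga: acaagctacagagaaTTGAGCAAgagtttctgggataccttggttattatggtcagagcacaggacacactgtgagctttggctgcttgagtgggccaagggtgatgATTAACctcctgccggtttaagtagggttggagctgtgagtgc
Fgb: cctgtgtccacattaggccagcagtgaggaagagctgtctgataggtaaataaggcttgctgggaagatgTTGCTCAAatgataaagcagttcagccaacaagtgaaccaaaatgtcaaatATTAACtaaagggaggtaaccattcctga
Fgg: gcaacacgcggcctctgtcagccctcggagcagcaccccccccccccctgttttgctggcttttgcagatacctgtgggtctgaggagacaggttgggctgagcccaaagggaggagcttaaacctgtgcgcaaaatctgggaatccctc
Fga and Fgb each hold an HNF1 half-site and a C/EBP motif in these stretches, and Fgg holds neither. The GENCODE annotation starts Fga at base 83026076, inside the printed stretch, so by GENCODE the Fga half-site lies within the gene. Fgb was at 4444, 5996 and 5439 CPM in HFD mice 1, 2 and 3, against 5697 and 6345 CPM in LFD mice 1 and 2, with a difference of -0.13 ± 0.22. Fga was at 2007, 1245 and 1163 CPM in the HFD mice, against 1325 and 1430.2 CPM in the LFD mice. Fgg was at 3548, 2690.3 and 1916 CPM in the HFD mice, against 2773 and 3093 CPM in the LFD mice. All 3 chains overlapped between the diets when HFD mouse 1 was included. The ratio of Fgb to Fga UMIs was 2.21, 4.81 and 4.68 in the HFD mice, against 4.30 and 4.44 in the LFD mice, so that HFD mouse 1 lay apart from the other 4.

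Kng1, kininogen of the contact system, was at 3548, 2550.2 and 2429 CPM in HFD mice 1, 2 and 3, against 2636 and 2987 CPM in LFD mice 1 and 2. F2, prothrombin, was at 394, 1038 and 1898 CPM in the HFD mice, against 1363 and 1349 CPM in the LFD mice. The HFD mice lay on both sides of the LFD mice for both genes. F11, factor XI of the intrinsic pathway, was at 0, 59.4 and 51.3 CPM in the HFD mice, against 78.3 and 77.7 CPM in the LFD mice, a difference of -0.72 ± 0.58 that rests on 0, 39 and 3 UMIs against 35 and 24 UMIs. As for C2, the 0 in HFD mouse 1 allows up to 107.5 CPM, above both LFD levels, so its place below them was not detectable at that depth. F13b, the carrier chain of the fibrin-crosslinking factor XIII, was at 71.7 to 109.6 CPM over the HFD mice and 129.8 to 155 CPM over the LFD mice. Its measured levels did not overlap, with a difference of -0.52 ± 0.46. They rest on 2, 72 and 5 UMIs in HFD mice 1, 2 and 3, against 58 and 48 UMIs in the LFD mice. The level in HFD mouse 1 is below its limit of 107.5 CPM, so the gap is poorly determined in HFD mice 1 and 3. The vitamin K-dependent proteases F7, F9 and F10, the cofactor F5, and F12 and Klkb1 of the contact system overlapped between the diets in 5 mice, with fold changes between -0.46 and -0.025.

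Of the 3 anticoagulant genes none passed, and all 3 had a fold change below 0, with a median of -0.28 in 5 mice and -0.079 in 4 mice. Serpinc1, antithrombin, was at 3405, 1474 and 1727 CPM in HFD mice 1, 2 and 3, against 1851 and 1773 CPM in LFD mice 1 and 2, with HFD mouse 1 far above the rest. Proc, protein C, was at 143, 393 and 616 CPM in the HFD mice, against 439 and 476 CPM in the LFD mice. Serpind1, heparin cofactor II, was at 71.7, 187 and 308 CPM in the HFD mice, against 246 and 191 CPM in the LFD mice. All 3 overlapped.

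Fibrinolysis genes summed to 1254, 1583 and 1949.7 CPM in HFD mice 1, 2 and 3, against 2321 and 2301 CPM in LFD mice 1 and 2, without overlap. Fold changes were below 0 for 4 of 4, with a median of -0.68 in 5 mice and -0.56 in 4 mice, and none passed. Hrg, histidine-rich glycoprotein, which binds plasminogen, was at 108, 522 and 410.5 CPM in the HFD mice, against 723 and 715 CPM in the LFD mice, a difference of -0.97 ± 0.45 (limma adjusted p = 0.929). Cpb2, the carboxypeptidase that protects fibrin from plasmin, was at 143, 260.4 and 257 CPM in the HFD mice, against 374 and 395 CPM in the LFD mice. Serpinf2, the plasmin inhibitor, was at 287, 314 and 462 CPM in the HFD mice, against 519 and 527 CPM in the LFD mice. These 3 genes did not overlap between diets, beside 14.3% of all genes with every HFD mouse below every LFD mouse. In HFD mouse 1 the levels of Hrg, Cpb2 and Serpinf2 rest on 3, 4 and 8 UMIs, so its place below the LFD mice is poorly determined. Plg, plasminogen itself, did overlap, at 717, 487 and 821 CPM in the HFD mice, against 705 and 663 CPM in the LFD mice.

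Other genes of the same pathways were followed in 4 lists. Of 31 further complement genes, 26 were in the table and 9 were tested, and none passed with 5 mice. In 4 mice C4a passed, at 13.7 and 51.3 CPM in HFD mice 2 and 3, against 51.5 and 55.0 CPM in LFD mice 1 and 2 (-1.79 ± 0.39, limma adjusted p = 0.0177), with counts that may be shared with C4b. Of 28 further coagulation genes, 11 were tested and none passed with 5 mice. In 4 mice the carrier glycoprotein Ahsg was lower, at 2905 and 3215 CPM in HFD mice 2 and 3, against 4675 and 3941 CPM in LFD mice 1 and 2 (-0.54 ± 0.14, limma adjusted p = 0.0481). Of 17 genes for vitamin K-dependent carboxylation and secretion, 13 were tested with 5 mice and 14 with 4, and none passed, with a median fold change of 0.076 in 5 mice. Vkorc1, which recycles vitamin K, was at 0, 224 and 154 CPM in the HFD mice, against 192 and 288 CPM in the LFD mice.

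Of 21 genes for liver transcription factors and their signals, 15 were tested, and none passed with 5 mice. In 4 mice Onecut1, a hepatocyte homeobox factor, passed as lower at 12.2 and 0 CPM in HFD mice 2 and 3, against 96.2 and 129 CPM in LFD mice 1 and 2 (-3.22 ± 0.63, limma adjusted p = 0.0089). Nr1i3, the nuclear receptor CAR, passed as higher in the same 4 mice, at 146 and 222 CPM in HFD mice 2 and 3, against 69.4 and 51.8 CPM in LFD mice 1 and 2 (1.36 ± 0.28, limma adjusted p = 0.0132). Hnf4a and Cebpa overlapped between the diets.

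To place cells along the lobule, the UMIs of 20 known periportal genes were set against those of 20 known pericentral genes, none of them a member, and each mouse's cells were split at its median into a periportal and a pericentral side. HFD mouse 1, with 5 cells, was left out, and the sides of HFD mice 2 and 3 and LFD mice 1 and 2 were compared within mice. A side is relative to its own mouse. The median score on the pericentral side, a natural log of periportal over pericentral UMIs, was -0.74, 0.16, -0.39 and -0.72 in these mice, in that order. The pericentral side of HFD mouse 3 was thus less pericentral by score than that of the other mice. Side levels set against each other between mice are not matched in position. The clotting genes summed higher on the periportal side, to 18589 and 18548 CPM in HFD mice 2 and 3 and to 17157 and 19298 CPM in LFD mice 1 and 2. On the pericentral side they summed to 12686 and 11687 CPM in HFD mice 2 and 3 and to 13799 and 14717 CPM in LFD mice 1 and 2. The periportal sum was the higher in all 4 mice, and no pericentral sum reached a periportal one.

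Of 37 tested members, 4 passed as higher on the periportal side, Fgb, Fgg, Kng1 and C9, and none on the pericentral side (limma voom with mouse as a block). Of all 1893 genes tested 2.64% passed as periportal, 2.27% as pericentral and 4.91% in either direction. The fold change of periportal over pericentral was above 0 for 31 of 37 members, beside 946 of all 1893 genes, with a median of 0.26, beside -0.00073 over all genes. With scaling by library size only it was above 0 for 27 of 37 members, and the count over all genes under that scaling is not given. Group medians were 0.50 for membrane attack, 0.35 for clotting, 0.30 for anticoagulation, 0.22 for activation, 0.16 for fibrinolysis and 0.15 for regulation. The periportal side was higher in all 4 mice for 11 members, beside 8.61% of all genes, and the pericentral side for 5 members, beside 16.2%.

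**Figure D4:**
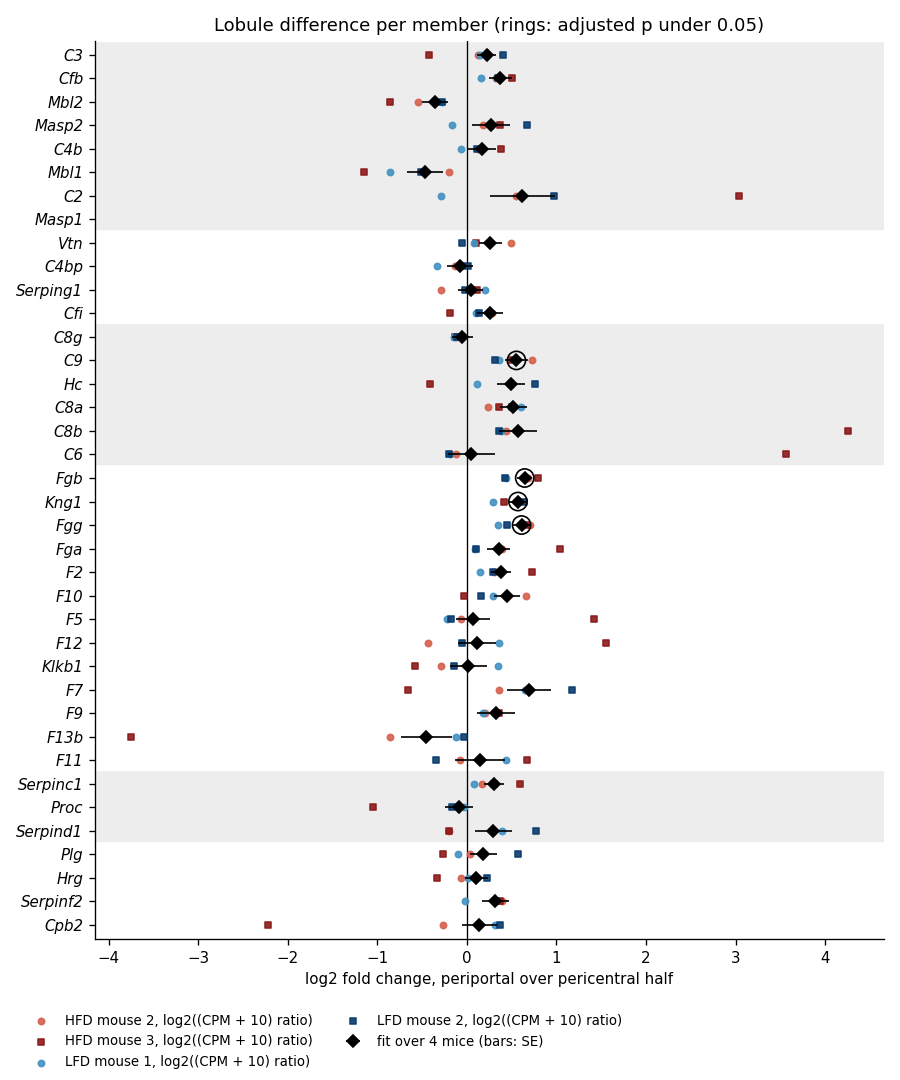
Log2 fold change of the periportal over the pericentral side for each tested member, with the fit over 4 mice (black, bars for the standard error) and each mouse's own value (colours, on CPM + 10). Rings mark an adjusted p under 0.05, on C9, Fgb, Kng1 and Fgg; HFD mouse 3, with 12 cells on each side, scatters most.

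Fgb was at 7652 CPM on the periportal and 4766 CPM on the pericentral side in HFD mouse 2, and at 7123 and 4117 CPM in HFD mouse 3. In LFD mouse 1 it was at 6343 CPM periportal and 4698 CPM pericentral, and in LFD mouse 2 at 7228 and 5365 CPM. Every periportal value exceeded every pericentral one, and the difference was 0.65 ± 0.086 (limma adjusted p = 0.00031, n = 4 mice). Fgg was at 3456, 2314, 3028 and 3543 CPM on the periportal side of HFD mice 2 and 3 and LFD mice 1 and 2, in that order, against 2122, 1456, 2378 and 2594 CPM on the pericentral side. The periportal side was higher in each mouse, by 0.61 ± 0.10 (limma adjusted p = 0.0021). Fga, the third fibrinogen chain, was also higher on the periportal side in all 4 mice, with a difference of 0.35 ± 0.13 that did not pass (limma adjusted p = 0.158).

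Kng1 was at 3124, 2820.2, 2839.9 and 3593 CPM on the periportal side of HFD mice 2 and 3 and LFD mice 1 and 2, in that order, against 2125, 2121, 2321 and 2314 CPM on the pericentral side. No pericentral value reached a periportal one, and the difference was 0.57 ± 0.10 (limma adjusted p = 0.0031). C9 was at 772, 832, 1164 and 1403 CPM on the periportal side in the same order, against 464, 582, 907 and 1126 CPM on the pericentral side, a difference of 0.55 ± 0.13 (limma adjusted p = 0.0172). Within each mouse the periportal side was higher, while the pericentral values of the LFD mice exceeded the periportal values of the HFD mice. Without HFD mouse 3, 7 members passed, with Hc, C8a and F10 beside these 4, among 127 of all 2129 genes tested, against 93 of 1893 with it. The call of C9 did not hold without HFD mouse 2 (0.42, limma adjusted p = 0.170) or without LFD mouse 2 (0.60, limma adjusted p = 0.0508). C8b and C8a were higher on the periportal side in 4 of 4 mice, by 0.57 ± 0.21 and 0.52 ± 0.15, and did not pass.

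The mannose-binding lectins ran the other way. Mbl2 was at 443, 362, 486 and 308 CPM on the periportal side of HFD mice 2 and 3 and LFD mice 1 and 2, in that order, against 652, 665, 593 and 375 CPM on the pericentral side, a difference of -0.35 ± 0.14 (limma adjusted p = 0.215). Mbl1 had a difference of -0.47 ± 0.20 (limma adjusted p = 0.236). Both were lower on the periportal side in all 4 mice, as were C8g (-0.050 ± 0.11), F13b (-0.45 ± 0.29) and Proc (-0.089 ± 0.15), and none passed. C8g thus lay near 0 while its partner chains C8a and C8b did not, although the difference between the chains was not tested.

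**Figure D5:**
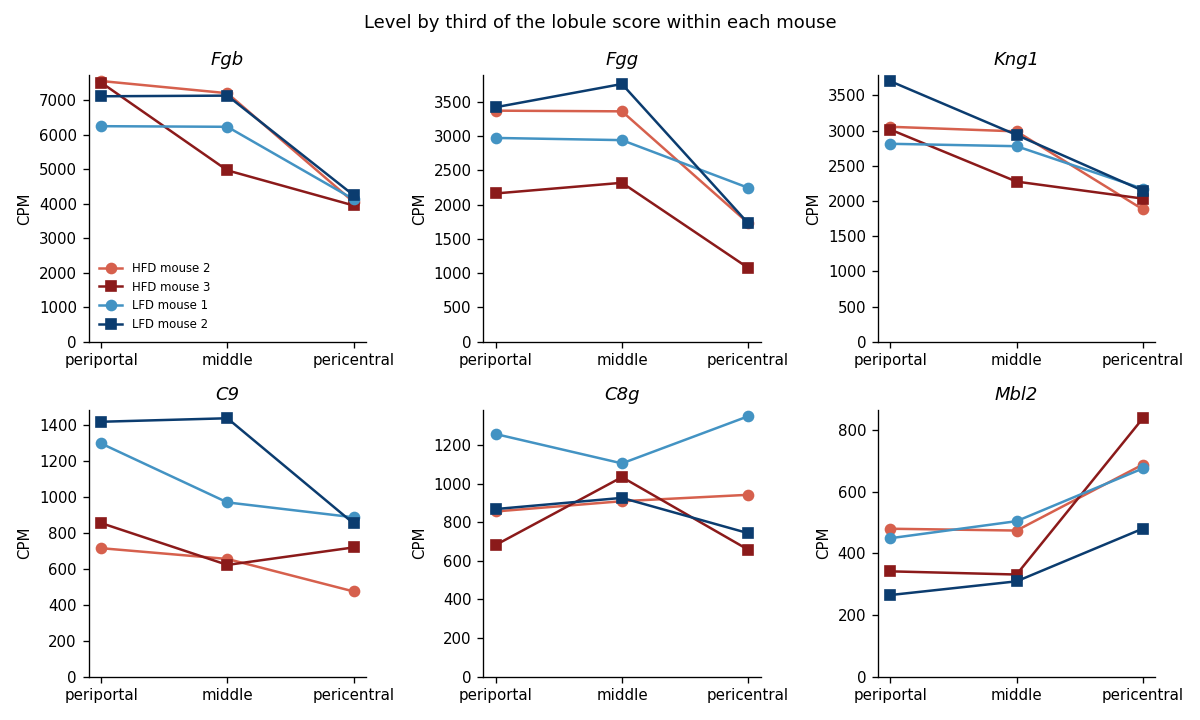
CPM of 6 members in the periportal, middle and pericentral groups of cells when the cells of each mouse are divided into 3 by the lobule score. Fgb, Fgg and Kng1 end lowest at the pericentral end in each of the 4 mice, Mbl2 ends highest there, and C8g follows no common course. C9 ends lowest there in HFD mouse 2 and LFD mice 1 and 2. In HFD mouse 3 it is lowest in the middle, at 853, 621 and 718 CPM from periportal to pericentral.

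With 3 groups of cells per mouse in place of 2, Fgb was at 7553 and 7508 CPM in the periportal group of HFD mice 2 and 3 and at 6244 and 7111 CPM in that of LFD mice 1 and 2. In the middle group it was at 7199.7 and 4965 CPM in the HFD mice and 6227 and 7129.7 CPM in the LFD mice. In the pericentral group it was at 4048 and 3948 CPM in the HFD mice and 4129 and 4246 CPM in the LFD mice. The middle group was thus near the periportal one in 3 of 4 mice, and in HFD mouse 3 it lay between the ends. Between the outer groups 14 of 35 tested members passed, 13 higher on the periportal side and Mbl2 higher on the pericentral side. The 13 were Fgb, Fgg, Kng1, C9, Cfb, Hc, C8a, C8b, F2, F7, F10, Fga and Serpinc1, from 169 of all 1299 genes tested that passed.

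Depth differed between the sides, with a median of 2021.5 UMIs per cell periportal and 2295 pericentral in HFD mouse 2, 1878.5 and 1755 in HFD mouse 3, 3612 and 1992 in LFD mouse 1, and 3242.5 and 2756 in LFD mouse 2. When each cell was thinned to 1728 UMIs and 113 shallower cells were left out, the 4 genes passed again and C8a passed with them, 5 of 34 tested members beside 66 of all 971 genes tested. Of the other lists, Nr1i3 alone passed along the axis, as lower on the periportal side (-2.37 ± 0.32, limma adjusted p = 0.00034).

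Whether the lobule difference depended on diet was tested with an interaction term in the same 4 mice. No member passed and none had an unadjusted p under 0.05, beside 0.158% and 4.01% of all 1893 genes. The smallest p was that of F13b, at -1.15 ± 0.54 (limma unadjusted p = 0.0508). Fgb, Fgg, Kng1 and C9 were higher on the periportal side in both HFD and both LFD mice. A p above the threshold does not show that the lobule difference was alike on both diets. Without HFD mouse 2, the deepest HFD library, HFD mouse 3 was the only HFD mouse left, with 12 cells on each side. Its pericentral side also had a median lobule score of 0.16, above that of the other mice. The calls of that fit were therefore not read as a diet effect.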

How the data were processed

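The tool STAR 2.6.0a and the build mm10 are named, per the submitters' processing notes. Not given in the sources used here are the cell filter, the annotation, the use of strand and of shared reads, and any doublet removal. The deposited table the authors made holds the natural log of 1 plus UMIs per 10000 UMIs of the cell, as its values show: 100% of values above 0 were whole multiples of 1 UMI within 0.001, so UMIs were recovered. A second deposited natural log table, named for the smoothing method MAGIC, served for comparison only. All columns of cells were given to a mouse by their prefix, and 0 were left out. No negative binomial test was run on them.

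UMI sums per mouse, or per mouse and lobule side, went into limma voom (version 3.58.1, R 4.3.3) with trimmed-mean normalization factors. A gene was kept at 32.4 CPM or more in at least 2 mice for diet, or 59.2 CPM or more in at least 4 side libraries for the lobule, with 15 UMIs in total; these levels equal 10 UMIs in the median library. P-values were adjusted over all tested genes. All fold changes are on the log2 scale, as HFD over LFD or as periportal over pericentral. The fitting was also run on simulated data as a self-test. Permutation used SciPy 1.17.1. No doublet caller was run, but the 5% of cells with most UMIs were left out as an alternative. The limit of 3 UMIs covers counting error only. Values after ± are the limma SE of a fit over mice, or the SD between mice where so marked.

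Gene positions are from GENCODE (mm10). Given in full are, per functional group, the 2 members of highest level, the 2 of smallest diet p and those past a threshold. The members and lists were chosen with earlier results of these data known.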

Additional observations from a re-analysis of the deposited data

How the results depend on the processing

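The count of members past the threshold for diet was 0 with 5 mice. It became 1, C8b each time, with a replicate block, with means of the deposited log values (14 genes passed in all), with sample quality weights (51), without the cells with marker UMIs of other cell types (31), and in periportal cells alone (66), the last 2 alternatives being chosen after seeing the data, as were pericentral cells alone. Leaving out each mouse gave 0 to 3, the 3 without HFD mouse 1, and a median of -0.59 to -0.27. With smoothed values the median was -0.033 on the log2 scale. With the replicate block C8b was -2.78 (limma adjusted p = 0.0370), the median -0.53, and 23 genes passed in all, beside 8 without it. Only numbers 1 and 2 are shared by both diets, so HFD mouse 3 drops out. Residual correlations of same-numbered mice were 0.033 and 0.065, so the numbers were not taken as pairs.

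Members past the lobule threshold numbered 4. The count was 0 with all 5 mice (median 0.64, beside 0.34 over all genes; 0 genes passed in all) and 0 without the mouse block (5 genes in all). It was 10 with a score lacking its 12 deepest genes, beside 151 of all 1932 genes tested, and 14 between outer groups, beside 169 of 1299. On leaving out each mouse it was 3 to 7, with medians of 0.20 to 0.29: 3 beside 43 of 1581 genes without HFD mouse 2, 7 beside 127 of 2129 without HFD mouse 3, 4 beside 60 of 1552 without LFD mouse 1 and 3 beside 61 of 2025 without LFD mouse 2. For the interaction it was 0 with the 4 mice. Leaving out any of them leaves a single mouse in a diet, so the counts of those fits were not read. The diet median over all genes moved to -0.34 and -0.50 with limma-trend on CPM + 10 and CPM + 1, to -0.25 without the deepest 5% of cells and to -0.20 without HFD mouse 3. Diet medians of members under alternative settings are therefore not to be set against the -0.056 over all genes of the main fit. The medians of members under limma-trend are not given here.

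Some fold changes of members that did not pass changed sign. By diet these were Fga 0.049 and Serpinc1 0.12 with the block, Proc 0.013 and Serpind1 0.33 in pericentral cells, Fga 0.074 and Fgb 0.14 in periportal cells, C4bp -0.0085, Fgb 0.016 and Fgg 0.0060 with smoothed values, C4bp -0.14 and Serpinc1 0.056 with mean logs, and Serpinc1 0.0011 with at least 50 UMIs and 0.13 on either log scale. By lobule side they were C4bp 0.80, Proc 0.082 and Cpb2 -0.32 with all 5 mice, Serping1 -0.037 with library size only, C8g 0.032 without the deepest cells, C4bp 0.061 and Plg -0.024 after thinning, C4bp 0.046, C8g 0.065 and Hrg -0.0043 between outer groups, and C8g 0.023 with the 12 deepest score genes. Leaving out each mouse gave by diet Fga -0.19 to 0.14, Kng1 -0.18 to 0.066, Serpinc1 -0.24 to 0.36, Serpind1 -0.75 to 0.14, Plg -0.30 to 0.27, C3 -0.83 to 0.031 and C8g -0.49 to 0.049, and by lobule side C4bp -0.15 to 0.0017 and Serping1 -0.074 to 0.17. The causes were not tested. With 5 cells, HFD mouse 1 limits every fit of 5 mice.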

Other observations

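Several members lie next to each other in the genome, and their fold changes are given side by side. Cfb and C2 lie 86 bases apart on chromosome 17, with diet fold changes of -0.58 and -1.51 on the log2 scale in 5 mice. F7 and F10, 1499 bases apart on chromosome 8, had diet fold changes of -0.41 and -0.38 and lobule fold changes of 0.69 and 0.45 toward the periportal side. F11 and Klkb1, 4658 bases apart on the same chromosome, had diet fold changes of -0.72 and -0.19. Hrg and Kng1, 96209 bases apart on chromosome 16, had diet fold changes of -0.97 and -0.094 and lobule fold changes of 0.11 and 0.57. The differences within these pairs were not tested.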
